A study of Mus musculus with 4 samples.

Results

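The genes described here are 4 serotonin receptor genes, Htr1b, Htr1d, Htr2a and Htr2b, as expressed in cultured mouse muscle stem cells with and without the arginine methyltransferase gene Prmt5. They were chosen from the same comparison that is reported below, because Htr1b was about 5 times lower in the mutant libraries, so their values in that comparison are given as a description without a test. They are 4 of 20065 genes in the table and 4 of the 6 serotonin receptor genes that have a row in it, out of 14 listed for the mouse. Htr1b and Htr2b passed the filter on low counts, a mean TMM-normalized count of 5 over the libraries, and Htr1d and Htr2a did not.

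Satellite cells, the stem cells of skeletal muscle, were isolated from limb and trunk muscle of adult C57BL/6 mice and sorted as CD11b-, CD45-, CD31-, CXCR4+, CD34+ cells. By the paper's definition of its groups, both carried the Pax7CreERT2 driver, which places a tamoxifen-activated Cre under Pax7. Both received 4-OH-tamoxifen in culture. The paper defines its control genotype as Pax7CreERT2/Prmt5+/loxP, which would lose 1 Prmt5 allele in principle. The sample titles call the 2 control cultures WT, so their genotype is not settled here. The 2 Prmt5sKO cultures, titled PRMT5 KO, were Pax7CreERT2/Prmt5loxP/loxP by the paper's definition. Total RNA depleted of ribosomal RNA was sequenced on an Ion Torrent instrument, and nothing states whether the cultures of a group came from separate animals.

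Serotonin acts on most cells through receptors that couple to G proteins. Receptors of the Htr1 class couple to Gi/o proteins, which lower adenylyl cyclase activity and cAMP, and receptors of the Htr2 class couple to Gq/11 proteins, which activate phospholipase C and release calcium from internal stores. Htr1b and Htr1d encode the closely related 5-HT1B and 5-HT1D receptors, known best as autoreceptors on nerve endings and as vascular receptors. Htr2a encodes a receptor of neurons, platelets and smooth muscle, and Htr2b encodes a receptor known for its roles in heart valves, fibroblasts and vascular cells.

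Htr1b (ENSMUSG00000049511) lies on the minus strand of chromosome 9 in GRCm38, from 81628291 to 81633828, and GENCODE M21 lists 2 transcripts of at most 2 exons. Htr1d (ENSMUSG00000070687) lies on the plus strand of chromosome 4, from 136423524 to 136444398, with 4 transcripts. Because the promoters of these class 1 receptors share a stretch of letters, they are shown here as the 300 bases around the start site, from RefSeq on GRCm38.p6 and written 5′ to 3′ on the strand of the gene. Htr1b stands at chr9:81633783-81634082 on the minus strand and the upstream of the 2 Htr1d promoters at chr4:136423274-136423573 on the plus strand. The capitals mark the letters TTGGCGC, the core of an E2F-type site.
Htr1b: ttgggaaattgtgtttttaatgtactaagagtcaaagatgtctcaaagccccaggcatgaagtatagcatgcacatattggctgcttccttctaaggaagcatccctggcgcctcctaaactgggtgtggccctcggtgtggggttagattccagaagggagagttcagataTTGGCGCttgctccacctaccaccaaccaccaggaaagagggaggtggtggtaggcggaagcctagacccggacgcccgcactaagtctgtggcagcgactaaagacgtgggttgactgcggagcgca
Htr1d: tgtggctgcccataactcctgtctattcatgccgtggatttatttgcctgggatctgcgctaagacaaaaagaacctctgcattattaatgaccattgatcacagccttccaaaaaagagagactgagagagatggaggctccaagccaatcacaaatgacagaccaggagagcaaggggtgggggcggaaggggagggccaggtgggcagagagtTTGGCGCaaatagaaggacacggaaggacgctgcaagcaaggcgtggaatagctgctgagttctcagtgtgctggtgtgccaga
The match began at position -78 in Htr1b and at -34 in Htr1d, counted with the start base as 0. TTGGCGC was searched on both strands and stood in 2.45% of 32851 promoters of the same length. It was chosen after these sequences had been read, and a match is a description of letters, not of binding. The other promoters searched, the downstream one of Htr1d and those of Htr2a and Htr2b, did not hold TTGGCGC. GC content was 53.3% for Htr1b, 52.0% and 74.3% for the Htr1d promoters, 52.0% for Htr2a and 41.0% for Htr2b. The E-box CANNTG, the general letters of sites for myogenic and other bHLH factors, stood in 72.3% of all promoters and was found in those of Htr1d and Htr2b but not in those of Htr1b and Htr2a. None of the 5 promoters held the cAMP response element TGACGTCA, present in 1.79% of all promoters, the TATA box TATAAA, present in 13.6%, or the cell cycle letters TTTGAA, present in 17.9%. The GC box GGGCGG, found in 35.7% of all promoters, was present in Htr1d and Htr2a.

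The libraries held between 13240754 and 20047430 counted reads, and each is named here by its depth within its group. Prmt5 stood at 2273 (deeper) and 2906 (shallower) TMM-normalized counts in the control and at 244 and 202 in the Prmt5sKO libraries, which matched the labels. Of 16212 genes tested with limma-voom, 0 passed an adjusted p of 0.05 (Benjamini-Hochberg) with a fold change of 2, or 0%, and 2101 had an unadjusted p below 0.05. The number called was 489 without the deeper and 55 without the shallower Prmt5sKO library. The libraries of a group also differed from each other. Xist, a transcript of the inactive X chromosome, stood at 8668 and 23.3 in the control and at 8.15 and 5655 in the Prmt5sKO libraries. Myog, a marker of myogenic differentiation, stood at 1436 and 1189 in the control and at 3707 and 19508 in the Prmt5sKO libraries.

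Htr1b was the most abundant serotonin receptor transcript of the control cultures and was about 5-fold lower in Prmt5sKO cultures. The deeper control library held 477 Htr1b reads and the shallower 347, and the Prmt5sKO libraries, in the same order, held 137 and 91. After TMM normalization, which scales libraries to a common size, these were 539 and 450.0 counts in the control and 102 and 91.5 counts in the Prmt5sKO libraries. Every Prmt5sKO library was below every control library, as in 23.6% of all genes tested. Htr1b was chosen on this difference, so the lack of overlap and the interval below are descriptions, not a test. The group means were 495 ± 63.0 and 96.5 ± 7.06 normalized counts (SD, n = 2 each). The fitted log2 fold change was -2.35 (SE 0.32, 95% interval -3.13 to -1.56), a 5.08-fold difference. Within a group the deeper library exceeded the shallower by 1.20 times in the control and 1.11 times in the Prmt5sKO cultures, while the smaller control value exceeded the larger Prmt5sKO value 4.43 times. Counting error alone was small at this depth. The pooled Prmt5sKO to control ratio was 0.195, with a counting interval of 0.168 to 0.227. In bulk cultures, fewer cells expressing Htr1b and less Htr1b RNA per cell cannot be told apart.

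A difference of this size was uncommon among the genes tested. With Htr1b included, 206 genes, or 1.27%, had a log2 fold change at or below that of Htr1b. Of the 5994 genes with a control mean at least as high as that of Htr1b, 14 had one as low. Both Prmt5sKO libraries were below both control libraries in 23.6% of all genes tested and above both in 25.2%, so the absence of overlap on its own sets no gene apart here. These positions come from the comparison that chose Htr1b and support nothing further.

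Htr2b had the opposite sign and a smaller difference. Htr2b (ENSMUSG00000026228) lies on the minus strand of chromosome 1, from 86099026 to 86111970, with 2 transcripts. It was counted with 88 and 105 reads in the control and 244 and 151 reads in the Prmt5sKO libraries, or 99.4 and 136 against 181 and 152 normalized counts. Both Prmt5sKO libraries lay above both control libraries, although the nearest values, 136 and 152, were closer to each other than the values within the control group. The means were 118 ± 26.0 and 166 ± 20.5 normalized counts (SD, n = 2 each), and the fitted log2 fold change was 0.53 (SE 0.37). Its 95% interval, from -0.37 to 1.43, included 0. The pooled ratio was 1.45, with a counting interval of 1.21 to 1.73 that does not include the spread between cultures.

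Htr1d and Htr2a were at the edge of detection. Htr1d had 0 reads in both control libraries and 5 reads in each Prmt5sKO library, which is 3.70 and 5.03 normalized counts. Set against a floor of 3 reads over the control group, this was at least 2.35-fold higher for the reads as counted, or 1.24 on the log2 scale, and 0.12 without the deeper control library. With counting error in both groups, the ratio reached down to 1.58. The exact Poisson interval of the 10 reads was 4.80 to 18.4, and that of the 0 control reads reached 3.69. Htr2a (ENSMUSG00000034997, plus strand of chromosome 14, 74640840 to 74709494, 1 transcript) had 6 reads in the deeper control library and 0 in the other 3 libraries. Against the same floor of 3 reads over the Prmt5sKO group it was at least 2.83-fold lower for the reads as counted, or -1.50 on the log2 scale. With counting error in both groups, the Prmt5sKO to control ratio reached up to 0.600. That value rested on 1 control library, and without it Htr2a was at 0 in both groups and no fold can be given. The 2 further serotonin receptor genes with a row were as sparse. Htr6, which couples to Gs, stood at 2.26 and 0 normalized counts in the control and at 4.45 and 5.03 in the Prmt5sKO libraries. Htr7, which also couples to Gs, stood at 1.13 and 0 in the control and at 8.15 and 1.01 in the Prmt5sKO libraries.

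**Figure D1:**
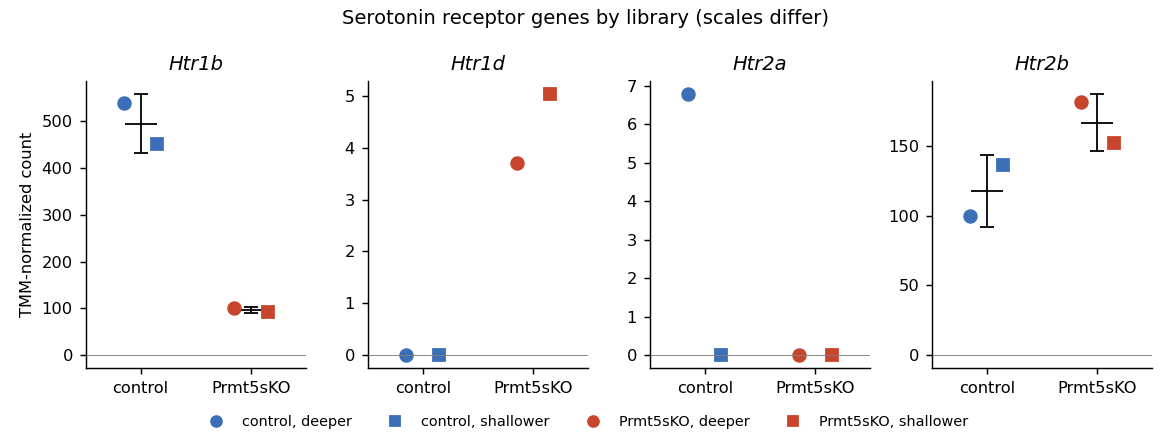
TMM-normalized counts of Htr1b, Htr1d, Htr2a and Htr2b in each of the 4 libraries, on a linear axis that starts at 0 and differs between genes. Points are libraries, and the bars for the 2 genes past the filter are the mean and SD. Htr1b stood at 539 and 450.0 in the control and 102 and 91.5 in the Prmt5sKO libraries, Htr2b showed the smaller difference of opposite sign, and Htr1d and Htr2a did not exceed 6.78.

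Because longer transcripts collect more reads, levels were compared between genes as TMM-scaled RPKM, which divides each count by the exonic length and the library size. On this scale Htr1b stood at 7.07 and 5.90 in the control libraries and at 1.33 and 1.20 in the Prmt5sKO libraries. Htr2b, whose exons are shorter, stood at 2.89 and 3.96 in the control and at 5.26 and 4.42 in the Prmt5sKO libraries. The order of the pair was thus exchanged. The level of Htr1b was 2.45 and 1.49 times that of Htr2b in the control libraries, and 0.253 and 0.272 times that of Htr2b in the Prmt5sKO libraries. This ratio is taken within a library and does not depend on how libraries were scaled, but it rests on the values that chose Htr1b.

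Among 38 genes for receptors of serotonin and other amines, 15 had a row and 8 were tested. Htr1b had the highest mean level per length in the control cultures, 6.49, and its libraries did not overlap with those of any other receptor. Next came the α1-adrenergic receptor Adra1b at 3.52 and Htr2b at 3.43, whose control libraries overlapped. In Prmt5sKO cultures Htr2b had the highest mean, 4.84, and its libraries overlapped in range with those of Adra1b, which had a mean of 3.86. Htr1b had a mean of 1.27 there, and its libraries overlapped in range with those of Adra1d, which had a mean of 1.03. The histamine receptor gene Hrh1 differed in the same direction as Htr1b, with 47.5 and 49.3 normalized counts in the control and 13.3 and 11.1 in the Prmt5sKO libraries. Its log2 fold change was -1.94 (SE 0.64, adjusted p = 0.323 in limma-voom), so it did not pass the test.

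**Figure D2:**
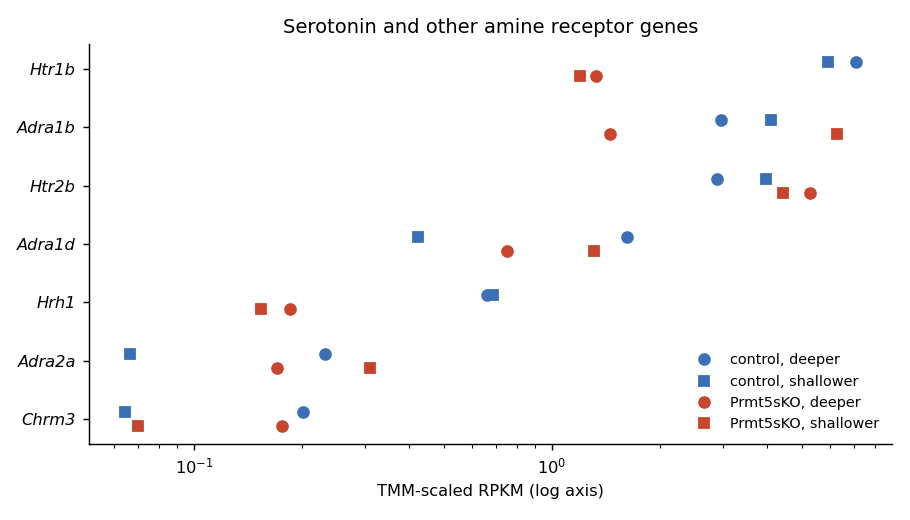
Levels of 7 of the 8 tested receptor genes per library, in TMM-scaled RPKM on a log axis, ordered by the control mean. Htr1b is at the right end of the control libraries, at 7.07 and 5.90, and is at 1.33 and 1.20 in Prmt5sKO, while Htr2b is between 2.89 and 5.26.

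Both genes share sequence with a gene on the opposite strand, and whether the counting used strand is not given in the sources used here. The antisense gene D430036J16Rik (chromosome 9, 81631551 to 81645156, plus strand) shares 852 of the 4724 exonic bases of Htr1b. It was sparse, at 9.04 and 11.7 normalized counts in the control and 1.48 and 3.02 in the Prmt5sKO libraries. Its log2 fold change was -2.13 (SE 1.11, adjusted p = 0.456 in limma-voom), so it had the sign of Htr1b but did not pass the test. Htr2b lies inside Psmd1, a gene for a proteasome subunit, and 252 of its 2131 exonic bases are shared. Psmd1 stood at 3565 and 3987 in the control and at 2548 and 3087 in the Prmt5sKO libraries, with a log2 fold change of -0.43 (SE 0.21, adjusted p = 0.437 in limma-voom). Its sign was opposite to that of Htr2b. Without strand, reads of shared bases cannot be told apart, nor can reads of unspliced Psmd1 RNA over the other bases of Htr2b.

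Htr1b stands in a stretch with few expressed genes. The nearest genes with a row were Gm9531 at 43.8 kb, with a log2 fold change of -0.63, and Mei4, a meiotic recombination gene, at 229.8 kb, with -0.95. Farther out lay the interleukin-1 receptor associated kinase binding gene Irak1bp1 at 1196 kb with 0.77, the myosin gene Myo6 at 1317 kb with 0.16, the SUMO protease gene Senp6 at 1483 kb with -0.13 and Gm17477 at 1506 kb with -0.69. Of these 6 neighbours, 0 were below in both Prmt5sKO libraries and 1, Irak1bp1, was above, beside 23.6% and 25.2% of all genes. Within 3 Mb on either side, 20 genes besides Htr1b were tested, and their log2 fold changes had a median of -0.09. In both Prmt5sKO libraries 3 were below and 4 above the control. The lowest of the 20 was the overlapping D430036J16Rik. Among the tested neighbours of the other members, 2 of 6 were below and 1 above for Htr1d, 0 of 5 below and 3 above for Htr2a, and 1 of 5 below and 2 above for Htr2b. Near Htr1d, the log2 fold changes were 2.07 for the transcription elongation factor gene Tcea3, -0.03 for Zfp46, -0.39 for Hnrnpr, 0.86 for 6030445D17Rik, -0.26 for Luzp1 and 0.02 for the histone demethylase gene Kdm1a. Near Htr2a, they were 0.36 for Sucla2, -0.46 for Cbx3-ps6, -0.30 for Esd, 0.62 for Lrch1 and 2.32 for Rubcnl, and Gm24540 was too sparse to test. Near Htr2b, they were 0.96 for Itm2c, 2.30 for Gm22786, -0.09 for Armc9, -0.41 for B3gnt7 and -1.04 for the nucleolin gene Ncl, and 2810459M11Rik was too sparse to test. None of these neighbours passed the test.

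**Figure D3:**
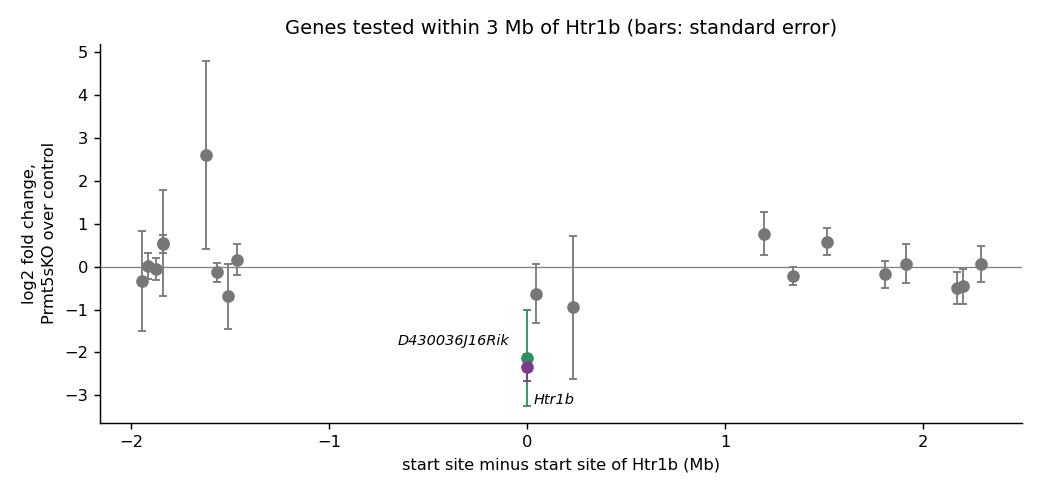
Log2 fold change of Prmt5sKO over control for Htr1b and the 20 other genes tested within 3 Mb, against the distance of their start sites in Mb, with bars for the standard error. Htr1b (-2.35) and the antisense D430036J16Rik (-2.13) are the 2 lowest points, and the other genes are between -0.95 and 2.60.

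The genes whose profile over the 4 libraries was nearest to that of Htr1b, by Euclidean distance of centred log2 values, were Gm12919 at a distance of 0.367, Fjx1 at 0.382, Gng13 at 0.395, Gm11628 at 0.405 and Mybl2 at 0.408. Mybl2, which encodes the cell cycle transcription factor B-Myb, was the only one of these 5 at a high level, with 1503 and 1637 normalized counts in the control and 265 and 318 in the Prmt5sKO libraries. Gng13, which encodes a G protein γ subunit of taste and retinal cells, stood at 11.3 and 6.48 in the control and at 1.48 and 1.01 in the Prmt5sKO libraries. Fjx1 stood at 33.9 and 22.0 against 5.19 and 6.03. Over 4 libraries in 2 groups, this likeness mostly restates a difference of similar size between the groups.

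Genes that make, move and break down serotonin, genes that carry its receptor signals and genes for receptors of other amines were examined. They formed 9 lists of genes that are no serotonin receptors. With the 10 further serotonin receptor genes, they came to 140 genes, of which 107 had a row and 98 were tested. In limma-voom 0 of the 98 passed the thresholds, beside 0% of all genes tested, and the smallest adjusted p among them was 0.301. With 0.193 as the smallest over all genes, the deleted gene Prmt5 included, this does not show the listed genes unchanged. Without the deeper Prmt5sKO library 1, Ddc, passed. Both Prmt5sKO libraries were below both control libraries in 17 of them (17.3%, against 23.6% of all genes) and above both in 22 (22.4%, against 25.2%). At an unadjusted p below 0.05, 6 were lower (6.12%, against 6.95% of all genes) and 4 were higher (4.08%, against 6.01%). The median log2 fold change was 0.15, and that of all genes tested was 0.02. These shares were near those of all genes.

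Serotonin itself may reach these cells from outside or be made in them. The tryptophan hydroxylases, which set the rate of serotonin synthesis, were sparse. Tph1 stood at 2.26 and 1.30 in the control and at 5.93 and 4.02 in the Prmt5sKO libraries, and Tph2 stood at 9.04 and 0 against 17.0 and 4.02. Of 7 synthesis genes tested, 0 were below and 1 above in both Prmt5sKO libraries, beside 23.6% and 25.2% of all genes. Their median was 0.52 on the log2 scale. The genes with the highest mean counts of the list belong to tetrahydrobiopterin metabolism. Spr was at -0.02 (SE 0.22), Qdpr at -0.31 and Pts, the 1 above in both, at 0.52 on the log2 scale. The serotonin transporter gene Slc6a4 had reads in the deeper Prmt5sKO library alone, at 9.63 normalized counts. The vesicular transporter Slc18a2 stood at 70.1 and 88.2 in the control and at 68.9 and 43.2 in the Prmt5sKO libraries, with a log2 fold change of -0.48, and was the 1 of 3 transport genes tested that was below in both. The monoamine transporter genes Slc29a4 and Slc18a1 were at -0.62 and 0.37.

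Serotonin breakdown was the list with the highest median, 1.09 over 6 tested genes, with 1 below and 4 above in both Prmt5sKO libraries, beside 23.6% and 25.2% of all genes. Monoamine oxidase A, the main enzyme of serotonin breakdown, was the more abundant oxidase. Maoa stood at 579.7 and 507 normalized counts in the control and at 719 and 663 in the Prmt5sKO libraries, with a log2 fold change of 0.35 (SE 0.22, adjusted p = 0.529 in limma-voom). Maob stood at 6.78 and 7.78 in the control and at 39.3 and 20.1 in the Prmt5sKO libraries, with a log2 fold change of 1.91 (SE 0.88, adjusted p = 0.413 in limma-voom). The aldehyde dehydrogenase gene Aldh2 was at 0.77. The sparse Aldh1a1 (2.26 and 9.08 against 13.3 and 15.1 normalized counts) was at 1.51 (SE 1.03). Aldh1b1 (1.13 and 3.89 against 2.22 and 25.1) was at 1.41 (SE 1.72), and its groups overlapped. The list median lies between Aldh2 and Aldh1b1, so it rests in part on few reads. The sulfotransferase gene Sult1a1, at 28.3 and 22.0 against 9.63 and 1.01, was at -2.60 (SE 1.11, adjusted p = 0.393 in limma-voom).

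On the Gi/o side, to which Htr1b couples, 10 genes were tested, with a median of 0.23. In both Prmt5sKO libraries 2 were below and 4 above the control, beside 23.6% and 25.2% of all genes. The subunits with the highest mean counts, Gnb1, Gnb2 and Gnai2, were at -0.33, -0.21 and 0.29. Gnaz, which encodes a pertussis toxin resistant α subunit of this class, stood at 22.6 and 5.19 in the control and at 39.3 and 40.2 in the Prmt5sKO libraries (log2 fold change 1.74, SE 0.84, adjusted p = 0.425 in limma-voom). Of 22 adenylyl cyclase and cAMP target genes, 4 were below and 5 above, with a median of -0.03. Prkar1a, a regulatory subunit of protein kinase A, stood at 9296 and 8111 against 13091 and 12947 (log2 fold change 0.58, SE 0.21, adjusted p = 0.339 in limma-voom). The other genes of this list with high counts, Prkaca and Adcy7, were at -0.13 and -0.09, and the cAMP sensor gene Rapgef4 stood at 3.39 and 2.59 against 17.8 and 13.1 normalized counts (log2 fold change 2.15).

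The next list holds transcripts known to respond to cAMP, together with Crtc2 and Crtc3, which encode coactivators of that response. Its median was 0.34 over 12 genes, with 1 below 0, Crtc2 at -0.17. In both Prmt5sKO libraries 0 were below and 3 (25.0%) above the control, beside 23.6% and 25.2% of all genes. For the other genes of the list the groups overlapped. Fos was the 1 with a log2 fold change above 1, at 171 and 75.2 in the control and 238 and 312 in the Prmt5sKO libraries (1.21, SE 0.45, adjusted p = 0.355 in limma-voom). Sik1, Nr4a2 and Crtc3, which had the highest mean counts of the list, were at 0.34, 0.25 and 0.12. The cAMP-responsive transcripts of this list answer to many signals besides receptors of the Htr1 class.

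On the Gq side, to which Htr2b couples, 13 genes were tested, with a median of -0.03. In both Prmt5sKO libraries 3 were below and 2 above the control, beside 23.6% and 25.2% of all genes. Phospholipase C β3, which had the highest mean count of the list, stood at 3895 and 3511 in the control and at 2664 and 2434 in the Prmt5sKO libraries (Plcb3, log2 fold change -0.54, SE 0.20, adjusted p = 0.352 in limma-voom). Plcb1 stood at 35.0 and 13.0 against 88.2 and 37.2 (log2 fold change 1.42, SE 0.81). Gna11 and the calcium release channel gene Itpr1 were at 0.17 and -0.28. Of 19 genes for receptor partners and desensitisation, 5 were below and 2 above, with a median of -0.02. S100a10, which encodes the p11 protein known to bind the 5-HT1B receptor and bring it to the cell surface, stood at 8334 and 4106 in the control and at 5957 and 9874 in the Prmt5sKO libraries, and the groups overlapped. Its log2 fold change was 0.40 (SE 0.41, adjusted p = 0.690 in limma-voom). Its binding partner Anxa2 was at -0.01 and Ahnak at -0.35. The regulators of G protein signalling Rgs2 and Rgs5 were at 1.35 and 2.65, and Rgs5 (1774 and 128 against 2367 and 4163 normalized counts) is also a marker of pericytes.

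**Figure D4:**
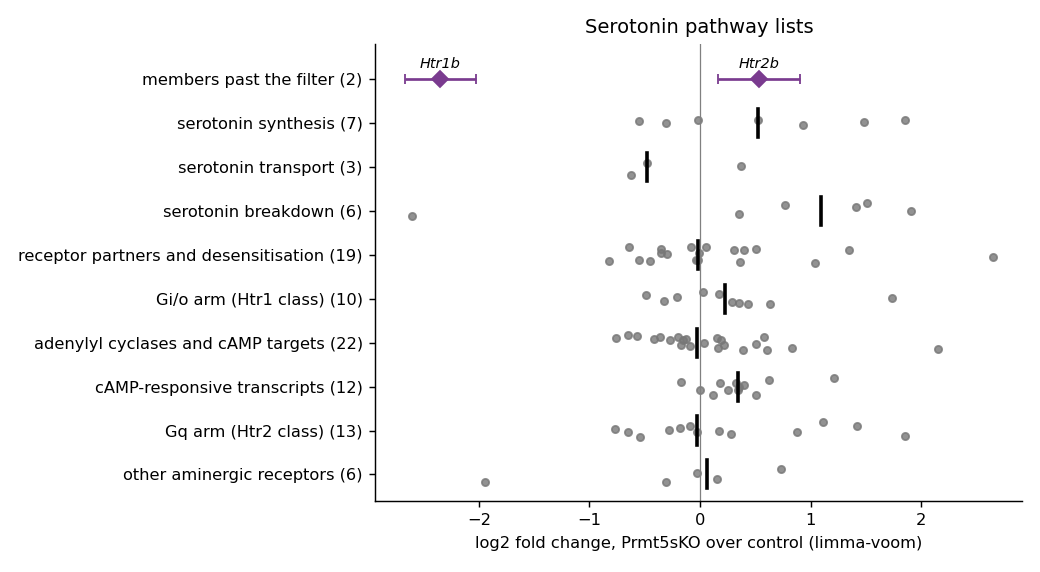
Log2 fold change of Prmt5sKO over control for the genes of the serotonin pathway lists and the list of other amine receptors, and for Htr1b and Htr2b with their standard errors. Grey points are genes (number tested in brackets, 1 receptor gene not drawn) and black lines are list medians. Htr1b at -2.35 lies below all listed genes except Sult1a1 at -2.60, and the list medians are between -0.48 and 1.09.

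Htr1b, Htr2a and Htr2b are known from vascular, blood and nerve cells, so markers of these cells were read in the same libraries. Of 10 myogenic markers, 9 were tested, and their summed normalized counts were 52673 and 46222 in the control and 51019.5 and 97168 in the Prmt5sKO libraries. Summed endothelial markers were 144 and 204 against 138 and 118 for 5 of 6 with a row. Of the 4 tested, 2 were below and 2 above in both Prmt5sKO libraries, beside 23.6% and 25.2% of all genes. Pecam1, which encodes CD31, stood at 40.7 and 62.2 against 27.4 and 10.1, whereas Tek stood at 13.6 and 27.2 against 43.0 and 29.2. Summed blood cell markers were 104 and 129.7 against 60.8 and 72.4 for 3 of 7, where Ptprc, the gene of CD45, had no row. Most of that sum came from Cd68, at 99.4 and 112 against 54.8 and 50.3. Itgam stood at 4.52 and 0 against 3.70 and 22.1, and Lyz2 at 0 and 18.2 against 2.22 and 0. Platelet and mast cell markers, of which 2 of 8 had a row, summed to 59.9 and 44.1 against 70.4 and 72.4, nearly all from Itga2b. Neuron and Schwann cell markers, of which 5 of 8 had a row, summed to 687 and 769 against 352 and 601, nearly all from Tubb3. Fibroblast markers, with 6 of 6 in the table, summed to 179 and 283 against 162 and 392. Of the 5 tested, 4 had a log2 fold change below 0 and 1, Col1a1, above 0, with a median of -0.98. Col1a1 stood at 116 and 59.7 against 99.3 and 328, whereas Dcn stood at 7.91 and 115 against 13.3 and 16.1. For all 5 the groups overlapped. Smooth muscle and pericyte markers summed to 12178 and 10665 against 19150.5 and 49616 for 5 of 6 with a row, and 4 of the 5 were above in both Prmt5sKO libraries, beside 25.2% of all genes. Acta2 made up most of that sum, while Myh11, which defines mature smooth muscle, stood at 10.2 and 9.08 against 6.67 and 10.1. The part of these cells in the values of Htr1b and Htr2b was not tested.

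The size of the Htr1b difference changed little under the settings tried. Over 12 alternatives to the scaling, the filter, the model and the set of libraries, its log2 fold change was between -2.46 and -2.22, and that of Htr2b was between 0.28 and 0.75.

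**Figure D5:**
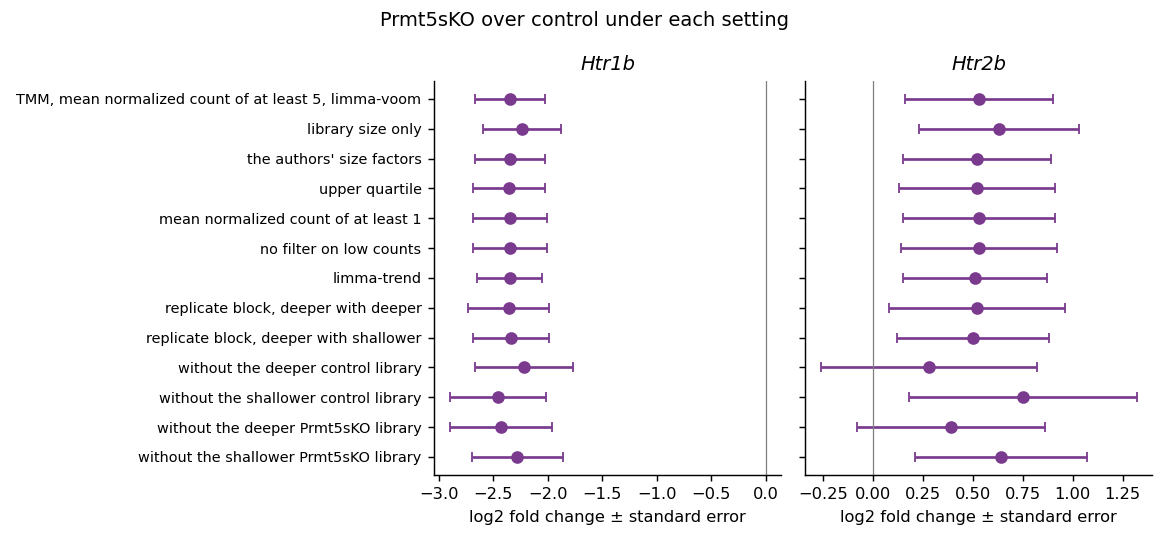
Log2 fold change of Prmt5sKO over control with its standard error for Htr1b and Htr2b under the reported setting (top) and each of 12 alternatives. Htr1b is between -2.46 and -2.22 in all of them, while Htr2b is between 0.28 and 0.75, with standard errors that cross 0 without the deeper control and without the deeper Prmt5sKO library.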

How the data were processed

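RNA was measured in 2 control and 2 Prmt5sKO libraries. The authors trimmed the reads, aligned them to GRCm38 with STAR 2.4.0a, counted them per gene and normalized them with DESeq2 1.62. The deposited signal columns hold group means of counts divided by size factors. The deposited log2 fold changes and p-values of the authors' own comparison were not used, and 0 columns of per-library values were left out. Whole reads per library were recovered from the group means, since these are whole multiples of what 1 read is worth in each library. All 20065 genes had 1 solution in each group (largest relative residual 5.8e-15), and simulated tables were recovered in 20065 of 20065 genes. The columns carry no replicate names, so libraries are named by depth. Recovered counts were scaled by TMM (trims of 30% and 5%), filtered at a mean normalized count of 5 and fitted with limma-voom (limma 3.58.1, R 4.3.3) on the 4 libraries without covariates, with Benjamini-Hochberg adjustment. edgeR was not run. Exonic lengths and symbols came from GENCODE M21, which named 19782 genes, and all 4 receptor genes matched the RefSeq promoter table. On simulated counts for the Prmt5sKO against control comparison (16217 genes, dispersion 0.03), limma-voom called 200 of 200 genes changed by 4-fold and 9 others. Every simulated gene had the same dispersion, and only well-counted genes were changed. The simulation therefore does not show the power of the test in the real libraries, where 0 genes were called. The members and lists were chosen with earlier results of these data known. The text names the receptor genes, the 3 genes of each pathway list with the highest mean normalized count, tested list genes with a log2 fold change of at least 1 in size and no overlap between groups, the 3 nearest genes on each side and overlapping genes, the 5 genes nearest in profile to Htr1b, and Prmt5. Tph1, Tph2, Slc6a4, Aldh1b1, Crtc2, Ddc, Xist, Myog and the cell type markers were named after their values had been seen. An exact permutation test of 2 against 2 cannot give a two-sided p below 0.333. Errors and p-values cover only the spread between these cultures. This spread is not technical alone. Xist stood at 8668 and 23.3 in the control libraries and at 8.15 and 5655 in the Prmt5sKO libraries. The number of animals behind the cultures is not given. Floors and intervals named as counting intervals cover counting error alone (95% level). The values of 1 tested amine receptor gene are not reported here, although it counts in its list.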

Additional observations from a re-analysis of the deposited data

How the results depend on the processing

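Alternatives were library size scaling, the authors' size factors, upper quartile scaling, a filter at a mean of 1, no filter, limma-trend, a replicate block in either pairing and leaving out each library. Scaling by library size moved the median of all genes from 0.02 to 0.13 and Htr1b to -2.24. Leave-one-out fits assume that the lone library varies like the other group. Under them Htr1b was between -2.46 and -2.22 and Htr2b between 0.28 and 0.75, and the Htr1d bound was between 0.12, without the deeper control library, and 1.47. Htr2a had no value without that library and a bound between -2.40 and -0.26 otherwise. The number of genes called over the table was 0 as reported, 489 without the deeper Prmt5sKO library, 55 without the shallower, and 0 without either control library. Of the pathway genes 1, Ddc, was called without the deeper Prmt5sKO library and 0 in the other leave-one-out fits. Ddc stood at 19.2 and 44.1 normalized counts in the control and at 16.3 and 246 in the Prmt5sKO libraries. The table carries no replicate numbers that would pair the libraries. With a replicate block that paired the deeper libraries, 0 genes were called and Htr1b was at -2.36, and with the crossed pairing 346 were called and Htr1b was at -2.34. The crossed pairing joins the libraries with high Xist and those with low Xist. Differences of libraries within groups correlated at -0.30 between groups over 11487 genes, and why the crossed pairing gave more calls was not tested. At 0 to 10 reads per group, the depth cannot show a difference in Htr1d or Htr2a beyond these bounds.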
